A study of Homo sapiens with 2 samples.

Results

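The nuclear-encoded genes of the respiratory chain were followed in HSC-1 cells after knockdown of the long non-coding RNA LINP1. The members were the protein-coding genes whose symbols begin with NDUFA, NDUFB, NDUFC, NDUFS, NDUFV, UQCR, ATP5, COX4, COX5, COX6, COX7 or COX8, together with SDHA, SDHB, SDHC, SDHD and CYC1, so the choice used names and no measured value. This gave 98 of the 44591 genes of the table, with 48 in complex I, 4 in complex II, 10 in complex III, 17 in complex IV and 19 in complex V. A total of 93 members held at least 10 reads summed over both libraries, out of 19840 such genes in all. The other 5 were ATP5L2, COX4I2, COX6A2, COX7B2 and COX8C. The symbols are the older ones of the table, in which the ATP synthase genes begin with ATP5. The rule also takes in genes that are not subunits, namely the NDUFAF assembly factors of complex I, the readthrough genes NDUFC2-KCTD14 and ATP5J2-PTCD1, COX7A2L, ATP5S and ATP5SL.

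The respiratory chain is a series of protein complexes in the inner mitochondrial membrane. Complexes I and II take electrons from NADH and succinate, complex III passes them to cytochrome c, and complex IV passes them to oxygen. Protons pumped by complexes I, III and IV drive ATP synthase, which is counted here as complex V. Most subunits are encoded in the nucleus and imported, whereas a small set at the core of complexes I, III, IV and V is encoded by mitochondrial DNA, so both genomes contribute to 1 enzyme.

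HSC-1 is an established line of human cutaneous squamous cell carcinoma (cSCC), and it was the only line sequenced. RNA-Seq was performed on 1 library of cells that received a control siRNA (siNC) and 1 library of cells that received siRNA against LINP1 (siLINP1). Per the labels, both were transfected in DMEM at about 70% confluency, kept without serum for 6 h, and grown for 24 h more with 10% serum. The comparison asks which genes differ once LINP1 is depleted. With 1 library per condition the spread between cultures is unknown and no test was possible. Each log2 fold change below is siLINP1 over siNC after scaling for library size, and its 95% interval (Clopper-Pearson, on the reads) covers counting error only.

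The siNC library held 18829544 counted reads and the siLINP1 library 15383081. LINP1 (chr10:6779344-6780901, GRCh37) had 167 reads with siNC and 23 with siLINP1, a log2 fold change of -2.65 (interval -3.35 to -2.02). Markers of squamous keratinocytes were mostly low in both libraries. Of 15 such genes, 10 were under 1 RPKM (reads per kilobase of gene, set to a common library total) in both, KRT5 had 32 and 24 reads, TP63 had 6 and 8, and IVL had 1 and 0. The highest was PERP, with 1158 and 1398 reads (14.3 and 21.1 RPKM), followed by SFN with 264 and 138 and KRT14 with 243 and 87 (7.89 and 3.46 RPKM). The 12 mesenchymal markers summed to 101974 reads in siNC and 68300 in siLINP1, of which VIM gave 61097 and 41992. SPARC gave a further 34148 and 21107. The median log2 fold change of those kept was -0.36, with 8 lower and 3 higher. The higher ones were ZEB1 with 697 and 883 reads (0.55, interval 0.41 to 0.70), COL5A1 (0.10, interval 0.01 to 0.19) and COL1A2 with 4 and 8 reads. The 15 gastric markers summed to 445 and 54 reads, with PGC at 194 and 0 and PGA3 at 95 and 0, while CHIA and PGA4 had no read in either library. ATP4A, with 13 and 28 reads (log2 fold change 1.32, interval 0.32 to 2.39), and MUC6, with 17 and 23, went the other way. The 8 muscle markers summed to 37 and 34 reads and the 6 liver markers to 317 and 218, of which SERPINA1 alone gave 309 and 209. The part of these cell type markers in the results below was not tested.

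Many respiratory chain promoters carry the recognition sequence of NRF1, a transcription factor known for its role in mitochondrial gene expression, and these sites are shown because they recur in genes of different complexes. The NRF1 motif was searched as GCGCA, any base, then GCGC, on both strands, in RefSeq promoters that run from 250 bases before to 50 bases after the start of the gene. Of the 98 members, 78 matched a promoter by symbol or synonym on the same chromosome. A match was found in 17 of these 78 (21.8%), in 13.3% of the protein-coding genes with at least 500 reads and in 8.58% of all 15843 protein-coding promoters. SDHA held 4 matches and NDUFB4 held 3. Only a part of the matches is printed below, all from genes that were lower in siLINP1. Matches in other members are left out, among them NDUFA8 (log2 fold change 0.04) and NDUFAF5 (0.17). The NDUFB4 match that begins 8 bases before the start is left out too. The sites are given 5′ to 3′ on the strand of the gene, with the motif in capitals and 6 bases on either side. Their positions were found by matching the RefSeq (GRCh38.p14) promoter to GRCh37. Distances are counted from the RefSeq start to the first base of the motif, whereas the positions include the 6 bases on either side. The RefSeq start can differ from the start of the gene in the table. Against the latter, the last 2 SDHA sites and the sites of ATP5O and ATP5C1 lie inside the gene, and the second NDUFB4 site and the UQCR10 site span its start. A match is a description of letters and no binding was measured.
SDHA, chr5:218263-218284, beginning 166 bases before the RefSeq start: cgctttGCGCAGGCGCggcgcc
SDHA, chr5:218312-218333, beginning 117 bases before the RefSeq start: catggtGCGCAGGCGCgatgtc
SDHA, chr5:218361-218382, beginning 68 bases before the RefSeq start: cgtggtGCGCAGGCGCggtatc
SDHA, chr5:218410-218431, beginning 19 bases before the RefSeq start: tgtggtGCGCAGGCGCagtctg
SDHD, chr11:111957481-111957502, beginning 110 bases before the RefSeq start: gtgtttGCGCATGCGCgacggg
NDUFB4, chr3:120315018-120315039, beginning 159 bases before the RefSeq start: cacttcGCGCATGCGCatatca
NDUFB4, chr3:120315114-120315135, beginning 63 bases before the RefSeq start: gctaacGCGCAGGCGCacttcc
UQCR10, chr22:30163344-30163365, beginning 8 bases before the RefSeq start: gccccaGCGCAGGCGCggtggc
ATP5O, chr21:35288117-35288138, beginning 24 bases before the RefSeq start: caacgcGCGCGTGCGCccttgc
ATP5C1, chr10:7830112-7830133, beginning 22 bases before the RefSeq start: gcttcgGCGCATGCGCgctgag

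The median log2 fold change was -0.43 in the members with an NRF1 match, less COX8C, which was under the minimum of reads, and -0.36 in those without. Over all protein-coding genes with at least 500 reads the medians were -0.05 with and -0.03 without a match. The ETS motif, CCGGAAGT, which GABP binds, was present in 11.5% of the members, 10.2% of the protein-coding genes with at least 500 reads and 6.19% of all promoters. The YY1 motif, AAGATGG followed by CGG, was present in 8.97%, 3.56% and 1.93%, respectively. The members with an ETS match had a median of -0.39 and those with a YY1 match -0.40, beside -0.36 in the members without the motif in both cases. The genes of the factors themselves had 359 and 306 reads for NRF1 (log2 fold change -0.02, interval -0.25 to 0.20), 596 and 443 for GABPA (-0.22, interval -0.40 to -0.04) and 1010 and 1051 for YY1 (0.27, interval 0.14 to 0.39).

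Most respiratory chain genes had lower scaled read counts in siLINP1 than in siNC, by a small amount. The median log2 fold change of the 93 members was -0.37, which is 77.4% of the siNC level, and the central part of the list lay between -0.49 and -0.15 (quartiles). The median was -0.02 over all genes kept and -0.03 over the 9134 protein-coding genes with at least 500 reads. The values of members ran from -0.76 for ATP5O to 0.38 for NDUFA4L2. Summed over all members, the reads went from 171914 to 115980, or from 0.913% to 0.754% of the library. In a bulk library, fewer cells of a type and less RNA per cell cannot be told apart.

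A total of 78 members were lower in siLINP1 and 15 were higher, where 52.2% of all genes kept and 54.1% of the protein-coding genes with at least 500 reads were lower. The counting interval lay below 0 in 72 of 93 members (77.4%), above 0 in 4 and held 0 in 17. Among all genes kept the interval lay below 0 in 25.6% and above 0 in 23.0%, and among the protein-coding genes with at least 500 reads in 37.9% and 31.1%. NDUFS1, NDUFAF2 and ATP5F1 were among the 4 with an interval above 0. The shift was broad, and most members were lower by less than 1.5-fold. Of the 93 members, 13 were lower by more than 1.5-fold, a share close to the 13.0% of all genes kept. None of the 93 was higher by more than 1.5-fold, against 14.4% of all genes kept. Among the 87 members with at least 500 reads, 12 were lower by more than 1.5-fold. That share was larger than the 4.43% of the protein-coding genes of that depth, of which 6.45% were higher by as much. Scaling by total count in place of size factors left 4 members lower by more than 1.5-fold.

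**Figure D1:**
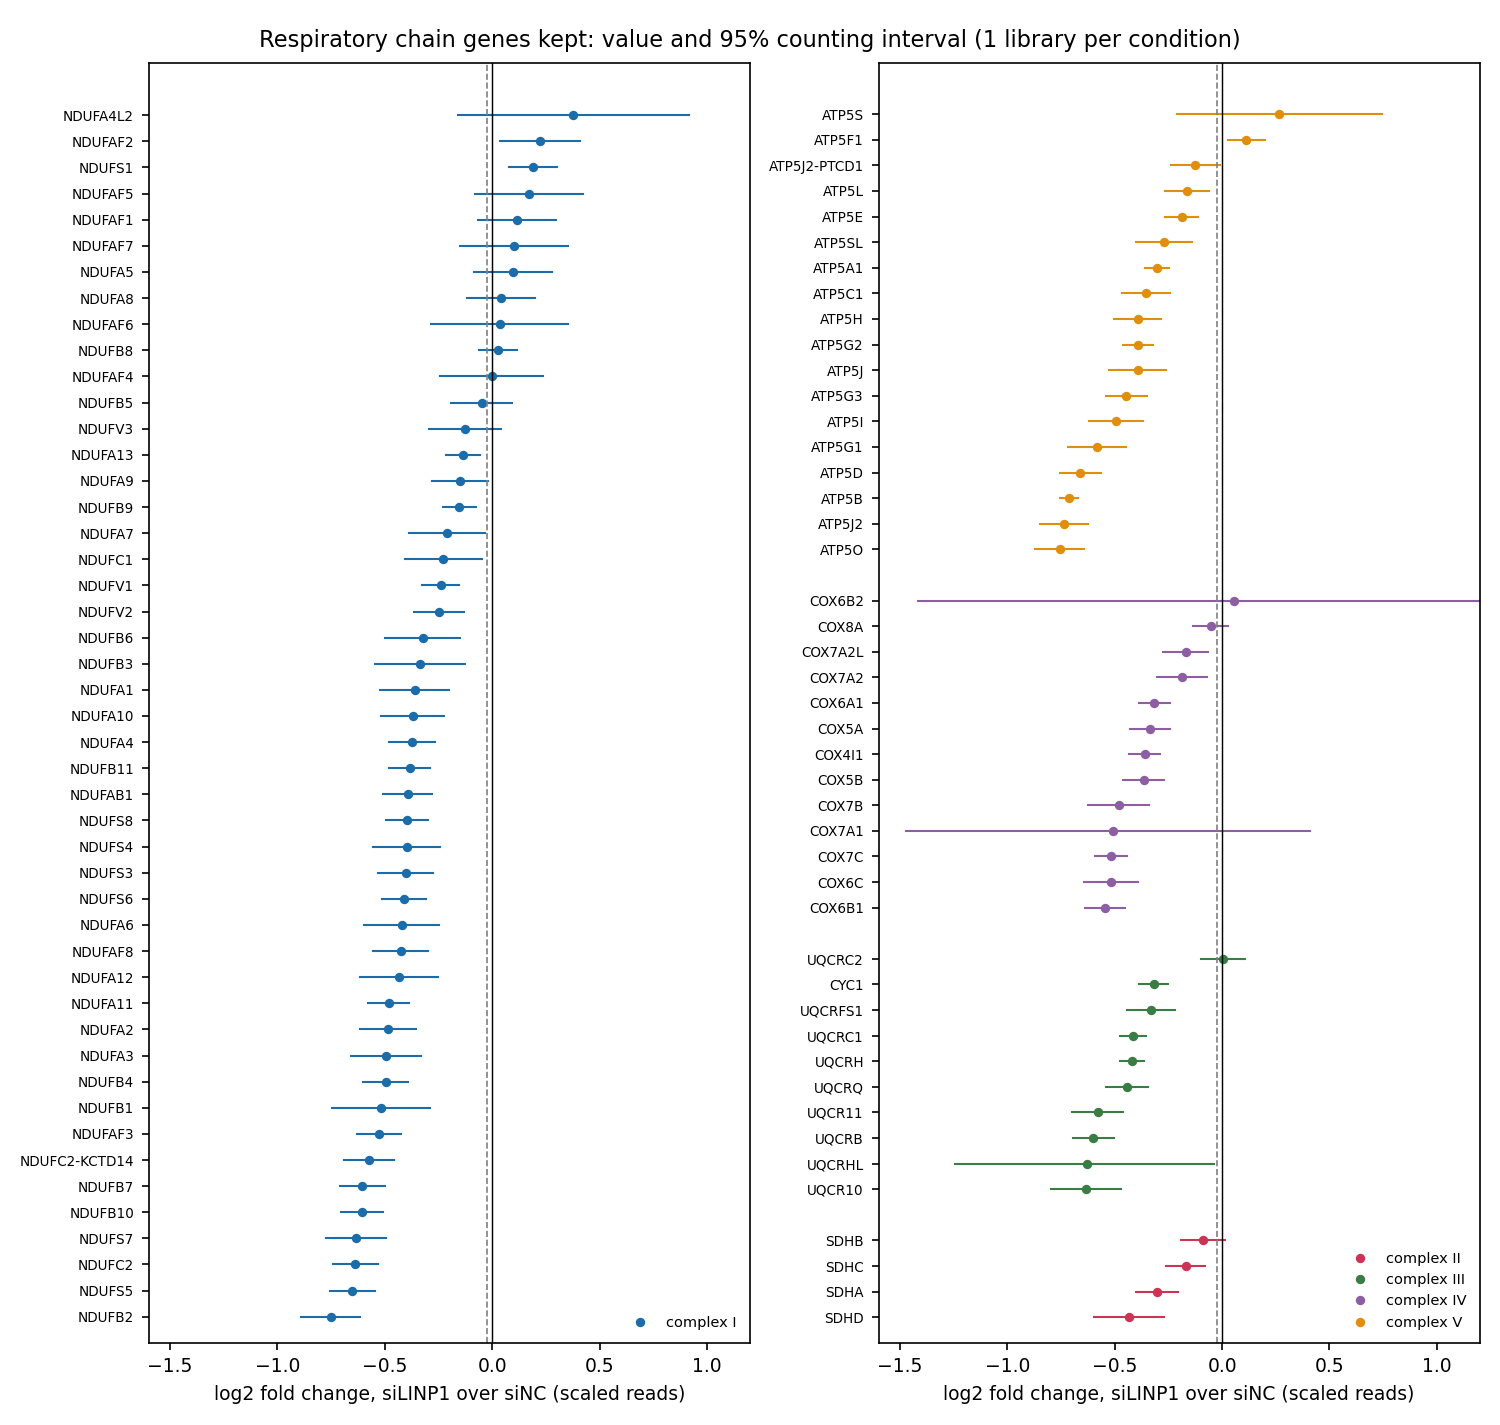
Log2 fold change (siLINP1 over siNC, scaled reads) of all but 1 of the 93 members kept, grouped by complex, with the 95% counting interval as a bar. The solid line marks 0 and the dashed line the median of all genes kept, -0.02. Most points lie left of both lines, from ATP5O at -0.76 to NDUFA4L2 at 0.38, and the bar of COX6B2 (19 reads) runs past the right edge to 1.51.

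The members are short genes, and short genes as a whole were lower in siLINP1. The median gene length in the table was 1153 bases for the members and 3585.5 for the protein-coding genes with at least 500 reads. Below 600 bases, 19 of 19 members of that depth were lower, with a median of -0.48, and 98.7% of the protein-coding genes of that length were lower, with a median of -0.38 in those that are not members. From 600 bases to below 1200, 26 of 28 members were lower (median -0.39) against 84.3% of the protein-coding genes (-0.28 in those other than members). The members were about as far from other genes of their length in both of these groups, and further in the groups of longer genes. From 1200 bases to below 2400, 18 of 24 members were lower (median -0.30) against 64.6% (-0.13). At 2400 bases or more, 13 of 16 members were lower (median -0.30) against 48.3% (0.01). These groups rest on the table length, which can differ from the length of a transcript. NDUFA11 has 2938 bases in the table and 575 in its GENCODE transcript, and ATP5G2 has 2793 and 632. UQCRB goes the other way, with 5223 and 8459. Some members counted as long may thus have short messages.

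Removing the trend of log2 fold change with gene length moved the median of the 93 members to -0.17, with 69 lower and 24 higher, and removing trends with GC content and transcript length moved it to -0.16. Across genes, log2 fold change and log2 length had a Pearson correlation of 0.34 over 91 members with at least 100 reads and 0.25 over the 9134 protein-coding genes. These points share both libraries and are not independent. What part gene length has in the lower values was not tested.

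Complex I, the NADH dehydrogenase, had 48 members with a median log2 fold change of -0.37. Of these, 34 had an interval below 0, 3 had one above 0, and 6 were lower by more than 1.5-fold. Beside the counts by complex here and below stand the shares of the protein-coding genes with at least 500 reads. Of those, 54.1% were lower, 4.43% by more than 1.5-fold, while 37.9% had an interval below 0 and 31.1% had one above. Both its core subunits and its assembly factors held genes on either side of 0. Less the trend with gene length the median was -0.13, and less trends with GC content and transcript length it was -0.089.

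The 7 nuclear core subunits, which bind flavin and the iron-sulfur clusters that carry electrons from NADH to ubiquinone, had a median of -0.25 and went in both directions. NDUFS1, the largest iron-sulfur subunit, had 1299 reads with siNC and 1283 with siLINP1, so that after scaling it was higher (0.19, interval 0.08 to 0.30). Less the length trend the value of NDUFS1 was 0.21, and less trends with GC content and transcript length it was -0.01. The transcript used for the latter is 11660 bases long, against a table length of 3572. NDUFS7, an iron-sulfur subunit next to the ubiquinone site, went the other way. It had 1179 and 657 reads (-0.63, interval -0.77 to -0.50), and it overlaps a gene on the opposite strand that holds more than 10% as many reads. Between them lay NDUFS8 at -0.40, NDUFS3 at -0.40, NDUFV2 at -0.25 and NDUFV1, which carries the flavin, at -0.24.

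The 31 accessory subunits, which surround the core and are needed for its assembly and stability, were more uniform. A total of 28 were lower, 26 had an interval below 0 and the median was -0.38. Among the protein-coding genes with at least 500 reads, 54.1% were lower and 37.9% had an interval below 0. NDUFB2 (chr7:140396481-140406446), a subunit of the membrane arm, had 1297 and 666 reads and the lowest value of the complex (-0.75, interval -0.89 to -0.62). NDUFS5 had 2090 and 1151 reads (-0.65, interval -0.76 to -0.55) and NDUFC2 had 2069 and 1150 (-0.64, interval -0.74 to -0.53). Both of these also belong to the membrane side of the complex. NDUFB10 went from 2333 to 1326 reads (-0.61) and NDUFB7 from 2084 to 1185 (-0.61). NDUFAB1, the mitochondrial acyl carrier protein, had 1574 and 1037 reads (-0.39), and NDUFA13, also known as GRIM-19, had 2943 and 2317 (-0.14, interval -0.21 to -0.06). The 11 NDUFB subunits had a median of -0.38, the 14 NDUFA subunits -0.37 and the 3 NDUFV subunits -0.24. NDUFA5, NDUFA8 and NDUFB8 were the 3 accessory subunits above 0, at 0.10, 0.04 and 0.03, each with an interval that holds 0. NDUFC2-KCTD14, a readthrough gene that shares exons with NDUFC2, had 1695 and 985 reads (-0.57), and reads of the shared exons cannot be assigned to 1 gene with certainty.

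The NDUFAF genes encode factors that help to build complex I and leave the finished enzyme. Their 8 values had a median of 0.07, with 3 lower and 5 higher, and less the length trend the median was 0.15. NDUFAF2, a chaperone of late assembly, had 476 and 480 reads (0.22, interval 0.04 to 0.41). NDUFAF3 and NDUFAF8 were the exceptions, with 2076 and 1246 reads (-0.53, interval -0.63 to -0.43) and 1259 and 810 reads (-0.43, interval -0.56 to -0.30). NDUFAF3 overlaps a gene with reads on the opposite strand. The other 5, NDUFAF1, NDUFAF4, NDUFAF5, NDUFAF6 and NDUFAF7, ran from -0.0030 to 0.17 with intervals that hold 0, and each had between 330 and 1009 reads in all. The difference between assembly factors and subunits was not tested.

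Complex II, the succinate dehydrogenase, links the respiratory chain to the tricarboxylic acid (TCA) cycle and is encoded wholly in the nucleus. All 4 of its genes were lower, with a median of -0.24, none by more than 1.5-fold. Less the length trend the median was -0.20, and less trends with GC content and transcript length it was -0.15. SDHA, the flavoprotein that oxidises succinate, had 2133 and 1495 reads (-0.30, interval -0.40 to -0.21). SDHB, the iron-sulfur subunit, had 1665 and 1354 reads (-0.09), with an interval of -0.19 to 0.02 that holds 0. The membrane anchors were SDHC, with 2289 and 1760 reads (-0.17, interval -0.26 to -0.08), and SDHD, with 789 and 505 reads (-0.43, interval -0.60 to -0.27). SDHA and SDHD carry the NRF1 motifs printed above. SDHA has 3 copies elsewhere in the genome, SDHAP1, SDHAP2 and SDHAP3, which together held 405 and 416 reads, or 18.5% of the reads of SDHA and its copies, so its count is uncertain to that extent.

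Complex III, the cytochrome bc1 complex, had 9 of its 10 members lower, all 9 with an interval below 0, and a median of -0.43. Less the length trend the median was -0.30, and less trends with GC content and transcript length it was -0.32. The 5 small subunits without a cofactor, UQCR10, UQCRB, UQCR11, UQCRQ and UQCRH, had a median of -0.58, with UQCRQ at -0.44 and UQCRH at -0.42. UQCR10 had 855 and 477 reads (-0.63, interval -0.80 to -0.47) and UQCRB, which lies near the ubiquinone sites, had 2440 and 1392 (-0.60, interval -0.70 to -0.50). Of the electron carriers, CYC1, the haem-bearing cytochrome c1, had 4145 and 2873 reads (-0.32, interval -0.39 to -0.25) and UQCRFS1, the Rieske iron-sulfur protein, had 1557 and 1071 (-0.33, interval -0.44 to -0.22). The pair of core proteins split, with UQCRC1 at 5571 and 3614 reads (-0.41) and UQCRC2 at 1665 and 1445 (0.01, interval -0.10 to 0.11). UQCRHL, an intronless copy of UQCRH, had 68 and 38 reads (-0.63, interval -1.24 to -0.04), and its reads cannot be told with certainty from those of UQCRH, which had 6423 and 4156.

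Complex IV, cytochrome c oxidase, had 12 of its 13 kept members lower, a median of -0.36 and none past 1.5-fold. Less the length trend the median was -0.14, and less trends with GC content and transcript length it was -0.10. COX6B1, on the side where cytochrome c docks, had the lowest value, with 2644 and 1567 reads (-0.55, interval -0.64 to -0.45). COX7C had 3821 and 2311 reads (-0.52, interval -0.59 to -0.44) and COX6C had 1372 and 828 (-0.52, interval -0.65 to -0.39). At the other end COX8A, a very small subunit, had 2835 and 2362 reads (-0.05, interval -0.13 to 0.03). COX4I1 and COX5A, which are among the first nuclear subunits to join the core, lay close together at -0.36 (3922 and 2642 reads) and -0.34 (2288 and 1567 reads), and COX5B was at -0.37 (2195 and 1473 reads). COX7A2L, a factor that joins complexes III and IV into supercomplexes, had 1699 and 1306 reads (-0.17, interval -0.28 to -0.07).

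Several complex IV subunits have isoforms that are restricted to muscle, lung or testis, and in both libraries nearly all reads came from the common form. COX4I2, the lung form, had 1 read in siNC and 0 in siLINP1, and the muscle form COX6A2 and the testis form COX7B2 had none, where COX6A1 had 3837 and 2665 reads and COX7B had 1078 and 668. COX8C had 0 and 2 reads and ATP5L2, a copy of ATP5L, had 0 and 2. COX6B2 had 10 and 9 reads, or 0.38% and 0.57% of the reads of the pair with COX6B1. COX7A1, the muscle form, had 28 and 17 reads beside 1362 and 1035 of COX7A2 (-0.19, interval -0.30 to -0.07). A different direction was seen for NDUFA4, long counted in complex I and now placed in complex IV, and its paralogue NDUFA4L2, known as a gene that hypoxia induces. NDUFA4 had 1728 and 1154 reads (-0.37, interval -0.48 to -0.26), whereas NDUFA4L2 had 57 and 64 (0.38, interval -0.16 to 0.92), so that per length NDUFA4L2 made up 5.41% of the pair in siNC and 8.77% in siLINP1. Its interval holds 0, and a gene on the opposite strand that overlaps it holds 11484 reads against the 121 of NDUFA4L2 in both libraries, so its count is uncertain.

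Complex V, the ATP synthase, had 16 of 18 kept members lower with a median of -0.39, and held 4 of the 13 members past 1.5-fold. Less the length trend the median was -0.24, and less trends with GC content and transcript length it was -0.20. In the catalytic F1 head, ATP5B, the beta subunit that makes ATP, had 13856 and 7306 reads (-0.71, interval -0.75 to -0.67). ATP5A1, the alpha subunit that alternates with beta around the same ring, had 6092 and 4272 (-0.30, interval -0.36 to -0.25). The intervals of these partners of 1 hexamer do not overlap, but at this depth they are narrow and cover counting error only. The difference between the partners was not tested. In the central stalk ATP5D had 2600 and 1423 reads (-0.66, interval -0.75 to -0.57), ATP5C1 had 1612 and 1091 (-0.35, interval -0.47 to -0.24) and ATP5E had 3087 and 2342 (-0.19, interval -0.27 to -0.11).

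The peripheral stalk, which holds the head still while the rotor turns, held values on either side of 0. ATP5O (chr21:35275757-35288158), the subunit that ties the stalk to the head, had 1825 and 934 reads and the lowest value of all 93 members (-0.76, interval -0.87 to -0.64). ATP5F1, the stalk's long b subunit, had 2251 and 2106 reads (0.11, interval 0.03 to 0.20). ATP5H and ATP5J lay between, both at -0.39. ATP5F1, ATP5H and ATP5J each overlap a gene with reads on the opposite strand. Of the small membrane subunits, ATP5J2 had 1882 and 977 reads (-0.74, interval -0.85 to -0.62), ATP5I had 1354 and 831 (-0.49) and ATP5L had 1788 and 1380 (-0.16). ATP5SL and ATP5S, which are not subunits of the finished enzyme, had 1143 and 819 reads (-0.27, interval -0.40 to -0.14) and 75 and 78 reads (0.27, interval -0.21 to 0.74). The readthrough gene ATP5J2-PTCD1, which shares exons with ATP5J2, had 1381 and 1096 reads (-0.12, interval -0.24 to -0.01).

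The ring of c subunits is made from 3 genes that encode the same mature protein. ATP5G1 had 1208 and 698 reads (-0.58, interval -0.72 to -0.45), ATP5G2 had 4064 and 2678 (-0.39, interval -0.46 to -0.32) and ATP5G3 had 2291 and 1455 (-0.45, interval -0.54 to -0.35). All 3 were lower, and their shares of the summed RPKM were close in the libraries. ATP5G1 gave 46.9% in siNC and 43.9% in siLINP1, ATP5G2 gave 36.6% and 39.0%, and ATP5G3 gave 16.5% and 17.0%.

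**Figure D2:**
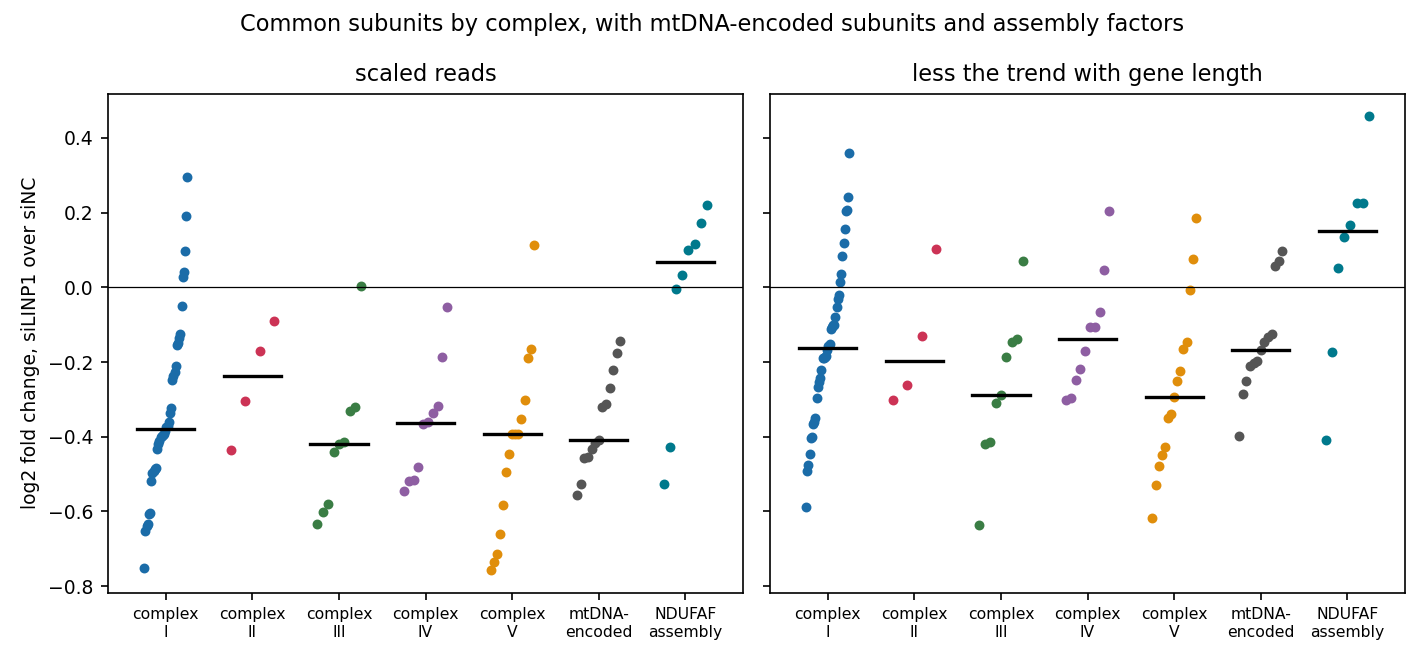
Log2 fold change (siLINP1 over siNC) of the common subunits by complex, of the 13 subunits encoded by mitochondrial DNA and of the 8 NDUFAF assembly factors, as scaled reads on the left and less the trend with gene length on the right. Points are genes and bars are medians. The medians of the subunits lie between -0.24 (complex II) and -0.42 (complex III) on the left and between -0.14 (complex IV) and -0.29 (complexes III and V) on the right, and that of the assembly factors lies at 0.07 on the left.

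Without assembly factors, readthrough genes, copies and tissue-restricted forms, 76 common subunits remained. Their median was -0.39, with 69 lower, 65 with an interval below 0 and 3 above. Of the protein-coding genes with at least 500 reads, 54.1% were lower, 37.9% had an interval below 0 and 31.1% had one above. Less the length trend, the median was -0.19 over the 76, and by complex -0.16 for I, -0.20 for II, -0.29 for III, -0.14 for IV and -0.29 for V.

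Levels per length were set side by side over the 76 common subunits. Log2 RPKM in siNC and in siLINP1 had a Pearson correlation of 0.986, which describes genes of very different levels in the same libraries and does not measure their order. RPKM is set per total reads, on which scale the median log2 fold change of all genes kept was 0.06. The median level was 78.2 RPKM in siNC and 67.4 in siLINP1. In complex I, NDUFA13 (288 and 278 RPKM) and NDUFB9 (228 and 217) were the highest in both. In complex II it was SDHB (76.7 and 76.3) followed by SDHC (42.1 and 39.7), and in complex III it was UQCRH (442 and 350), followed by UQCRC1 (183 and 145) and CYC1 (178 and 151), which changed places. COX7C (499 and 369) and COX6A1 (356 and 303) led complex IV in both libraries. The leading pair of complex V also changed places, with ATP5B at 399 and 258 RPKM and ATP5E at 373 and 347. Among the 38 of complex I, NDUFB2 went from rank 7 in siNC to rank 11 in siLINP1. The lowest were NDUFA10 (5.28 and 4.32) and NDUFA5 (4.28 and 4.85), whose table lengths are 9731 and 6507 bases, so a short message would be understated by the division.

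**Figure D3:**
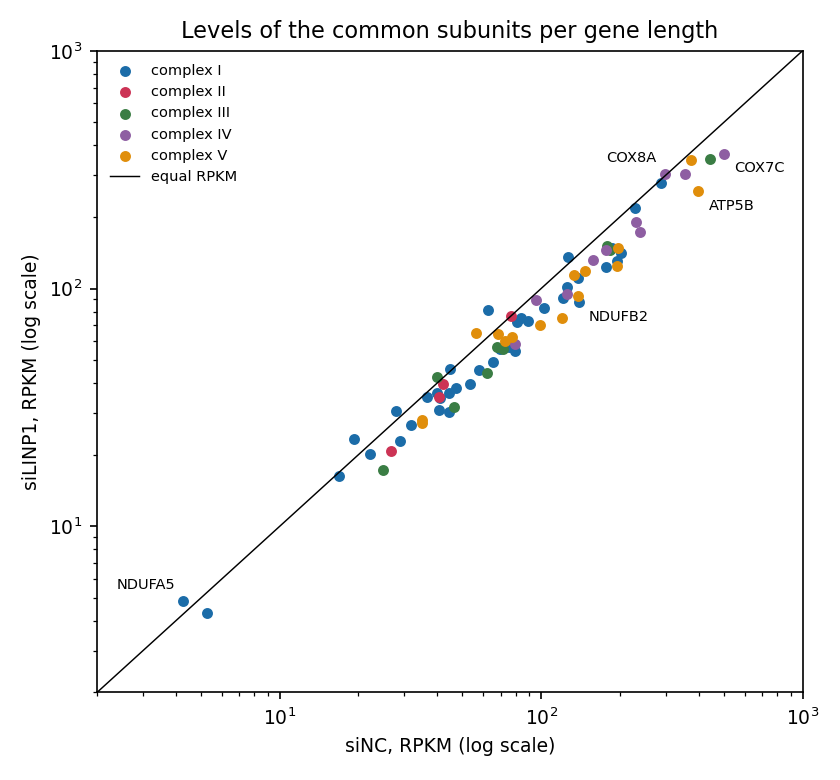
RPKM of the 76 common subunits in siLINP1 against siNC, on log axes, 1 point per gene, with the line of equal RPKM. The points follow the line from NDUFA5 (4.28 and 4.85) to COX7C (499 and 369) and most lie under it, with ATP5B, among the highest, under it.

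The subunits encoded by mitochondrial DNA, which are made in the organelle and assembled with the nuclear ones, were lower as well. All 13 had an interval below 0, and the median was -0.41 (range -0.56 for ND4 to -0.14 for ND1). Among the protein-coding genes with at least 500 reads, 37.9% had an interval below 0. The 13 held from 4894 reads (ATP8) to 204486 (COX1) over both libraries, so their counting intervals are narrow and leave out 0 even for small differences. Less the length trend the median was -0.17, the same to 2 decimals as over the 93 nuclear members, whereas less trends with GC content and transcript length it was -0.32, beside -0.16 over the nuclear members. The 13 summed to 455989 reads in siNC and 301373 in siLINP1, or 2.42% and 1.96% of the library. By complex, their medians were -0.42 for the 7 of complex I, -0.41 for the 3 of complex IV and -0.37 for the 2 of complex V, and CYTB, the only one of complex III, was at -0.32 (28922 and 20037 reads).

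Of the other genes of the pathway, CYCS, the cytochrome c that carries electrons from complex III to IV, had 1970 and 1732 reads (0.02, interval -0.07 to 0.12), and ATPIF1, the inhibitor of ATP synthase, had 1466 and 1064 (-0.25, interval -0.37 to -0.14). The 23 assembly factors of complex IV had a median of -0.06, with 8 intervals below 0 and 4 above, from COA3 at -0.49 to PET117 at 0.50. Of the protein-coding genes with at least 500 reads, 37.9% had an interval below 0 and 31.1% had one above. Assembly factors of complex I outside the naming rule had a median of -0.01 over 6 genes, from ECSIT at -0.25 to NUBPL at 0.07. Those of complex II had -0.01 over 4, from SDHAF2 at -0.10 to SDHAF4 at 0.56. Those of complex III had 0.03 over 6, from UQCC2 at -0.34 to UQCC1, which had 837 and 1020 reads (0.49, interval 0.36 to 0.63). Those of complex V were TMEM70 at -0.27, ATPAF1 at -0.04 and ATPAF2 at -0.01, and the list also held USMG5, a small membrane subunit of the enzyme, at -0.28. No test of the difference between these lists and the subunits was possible.

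Some counts cannot be assigned to 1 gene with certainty, because the strand setting of the counting is not given in the sources used here. A total of 25 members overlap a gene on the opposite strand and 16 overlap one on the same strand. For 11 members the gene on the opposite strand holds more than 10% as many reads as the member, namely ATP5F1, ATP5H, ATP5J, ATP5J2-PTCD1, NDUFA1, NDUFA2, NDUFA4L2, NDUFAF3, NDUFC1, NDUFS3 and NDUFS7. Pseudogene entries named for 41 members numbered 115, but they held only 689 reads in siNC and 657 in siLINP1, and SDHA was the only member with more than 10% of such reads on its copies.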

How the data were processed

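Total RNA of HSC-1 cells was sequenced by the authors on an Illumina HiSeq instrument, aligned to GRCh37/hg19 with Tophat2 and counted per gene with HTSeq, per the study's methods. The submitters' processing notes also name HISAT2, HISAT and Bowtie2. Annotation, counting mode and strand setting are not given in the sources used here. The authors deposited raw read counts and RPKM. The deposited RPKM equal the count divided by table length and by the library's counted reads, and were recomputed from the counts. The table's 12 other columns of per-sample values were not used.

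Size factors from the median of ratios (1.08 for siNC, 0.930 for siLINP1) scaled the counts. Genes with fewer than 10 reads in the libraries together were dropped, and no pseudocount was added. For the log2 fold change, a count of 0 in 1 library was set to 3 reads where the other library held more than 3. The 95% interval is the Clopper-Pearson interval for the part of a gene's reads that fell in siLINP1, expressed as a log2 fold change. Lowess trends (fraction 0.3) were fitted on 13336 genes with at least 100 reads for gene length, and on 12435 for GC content and transcript length from GENCODE on GRCh37. The calculation was tested on simulated data.

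Members and lists were chosen with earlier results of these data known. Named members were those past 1.5-fold with at least 100 reads, the 2 highest per length and the largest differences in each complex, the SDH genes, CYC1, paired isoforms and members under the minimum. Some results on single genes are not reported here. Names beyond these, the minimum of 500 reads, the length groups and the length trend over common subunits were chosen after values were seen. Alternatives were scaling by total count or edgeR TMM factors, minimums of 1 and 100 reads, pseudocounts of 1 and 5, length and GC trends, common subunits only, and NDUFA4 in complex IV. The TMM factors came from edgeR 4.0.16 in R 4.3.3. All else was run in Python 3.11.15 with scipy 1.17.1, numpy 2.4.6, statsmodels 0.14.6, pandas 2.3.3 and matplotlib 3.10.9.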

Additional observations from a re-analysis of the deposited data

How the results depend on the processing

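Under the alternatives, 73 recomputed values stayed within a range set for each (the distribution-free 95% interval of the list's median over its genes, or 1.5 times a count), 13 moved past it and none reversed. That range is wide for a list of few genes. Scaling by total count gave a median of -0.29 for all members, 4 members lower by more than 1.5-fold in place of 13, and 7 with an interval above 0 in place of 4. Removing the trend with gene length gave -0.17 for all members, -0.13 for complex I, -0.30 for complex III and -0.14 for complex IV. Removing trends with GC content and transcript length gave -0.16 for all members, -0.089 for complex I and -0.10 for complex IV. Common subunits with the length trend removed, an alternative added after the data were seen, gave -0.19 for all, -0.29 for complex III and -0.14 for complex IV. Within their ranges, complex I came to -0.16 in that alternative, and complex V to -0.24 without the length trend and -0.20 without GC and transcript length trends, from -0.39. The cause was not tested. With 1 library per condition, no library could be left out, the spread between cultures is unknown, and intervals cover counting error only. No paired analysis was possible because each condition has 1 library.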

Other observations

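In the counted reads, the ribosomal RNAs encoded by mitochondrial DNA went in the other direction from its messages. RNR1 had 19465 and 21840 reads in siNC and siLINP1 (log2 fold change 0.38, interval 0.35 to 0.40), and RNR2 had 82145 and 82647 (0.22, interval 0.20 to 0.23). Together they made up 0.540% of the siNC library and 0.679% of the siLINP1 library, while the 13 messages had a median of -0.41. What part library preparation has in these values was not tested.

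Of the 14 TCA cycle genes, 12 were lower in siLINP1 and 9 had an interval below 0, with a median of -0.18. Of the protein-coding genes with at least 500 reads, 54.1% were lower. Beside this list and those that follow, 37.9% of those genes had an interval below 0 and 31.1% had one above. IDH2, the mitochondrial isocitrate dehydrogenase that uses NADP, had 422 and 242 reads (-0.59, interval -0.83 to -0.36). The 13 regulators of mitochondrial biogenesis had a median of 0.001, with 4 intervals below 0 and 5 above. POLRMT, the mitochondrial RNA polymerase, was the lowest, with 2724 and 1797 reads (-0.39, interval -0.48 to -0.30), and PPARGC1A, the coactivator PGC-1alpha, was the highest, with 76 and 106 reads (0.69, interval 0.25 to 1.13). The 20 genes of mitochondrial protein import had a median of -0.15, with 11 intervals below 0 and 6 above. TOMM5 had 1816 and 1102 reads (-0.51, interval -0.62 to -0.40) and TOMM22, a receptor of the same outer membrane complex, had 849 and 1227 (0.74, interval 0.61 to 0.87).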
